A study of Mus musculus with 14 samples.

Results

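The 47 genes described here encode the machinery that copies DNA: factors that license and fire replication origins, polymerases and primase, the sliding clamp and its loader, single-strand binding and lagging-strand proteins, enzymes of nucleotide supply, and a chromatin assembly factor. They were taken by name from the deposited table of 24833 genes, all 47 were found, and all 47 were among the 15466 genes with enough counts to be tested. Counts came from bulk RNA-seq of SLAM cells of mouse bone marrow, the stem cell-enriched fraction that is LSK (lineage-negative, Sca-1-positive, Kit-positive), Flk2-, CD48- and CD150+. C57BL/6 mice were injected intraperitoneally each day with 0.5 µg of the inflammatory cytokine interleukin-1β (IL-1β), and control mice with saline buffer (PBS). There were 3 IL-1β and 3 PBS libraries after 1 day, and 4 IL-1β and 4 PBS libraries after 20 days. Each was a biological replicate from sorted cells pooled over 3 to 5 mice, so animals within a pool are not resolved. The ages of the mice were not given in the sources used here.

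Origins of replication are licensed in G1, when the origin recognition complex, Cdc6 and Cdt1 load the MCM helicase onto DNA, and they fire in S phase, when the Dbf4-dependent kinase Cdc7 and the cyclin-dependent kinases turn that helicase on with Cdc45 and the GINS complex. Transcripts of most of these factors are made under E2F transcription factors and are low in resting cells. Long-term hematopoietic stem cells are mostly quiescent in unperturbed marrow, and in a bulk sample more cells in the cycle and more RNA per cycling cell cannot be told apart.

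Library totals lay between 21654896 and 29441947 counts. Library titles carry different tags, here called naming sets, and each set is balanced between the treatments. At 1 day replicates 1 and 2 are tagged E060216 and replicate 3 is tagged 10k. At 20 days replicates 1 and 2 are tagged E061316, while replicates 3 and 4 have no tag and are called the untagged set. What the tags stand for is not stated, and the naming set entered the model as a term. Markers of other cells differed between the groups. At 1 day the 6 long-term stem cell genes summed to 1133 to 1384 CPM (read counts scaled to the library total) in IL-1β libraries and 1515 to 1917 in PBS libraries, and 7 erythroid genes to 62.6 to 84.0 CPM in IL-1β libraries and 41.5 to 56.3 CPM in PBS libraries, and the members of that list did not move together. The globin gene Hbb-bt was called higher (log2 1.61, edgeR adjusted p = 0.0036), while Hba-a1 stood at -2.01 and Hbb-bs at -0.50 without a call. The 6 macrophage genes summed to 5.74 to 14.5 CPM in IL-1β libraries of 1 day and 20.5 to 27.3 CPM in PBS libraries. At 20 days Flt3 and Cd48, which encode the proteins the gate selects against, summed to 84.2 to 148 CPM in IL-1β libraries and 43.9 to 65.6 CPM in PBS libraries. Kit, Ly6a and Slamf1, which encode proteins it selects for, summed to 1404 to 1564 CPM in IL-1β libraries and 788 to 1601 CPM in PBS libraries. Among these Slamf1 was called higher (log2 0.81, edgeR adjusted p = 0.00093), while Kit (0.12) and Ly6a (0.28) were not called. The 7 erythroid genes reached 153 to 191 CPM in IL-1β libraries of 20 days and 46.7 to 72.2 CPM in PBS libraries. Among them Hbb-bt (log2 3.11) and the erythropoietin receptor gene Epor (0.57) were called higher, Hbb-bs was called lower (-1.68, edgeR adjusted p = 0.012), and Hba-a1 stood at -2.59 without a call. The 5 megakaryocyte genes summed to 682 to 1176 CPM in IL-1β libraries and 457 to 613 CPM in PBS libraries. Of these, Pf4 (log2 1.02), Itga2b (0.72) and Gp1bb (0.93) were called higher, while Gp9 (0.37) and Ppbp (-0.52) were not called. At 1 day Gp9 was called lower (-0.71, edgeR adjusted p = 0.0082). IL-1β replicate 3 of 20 days had 2631 CPM over 9 neutrophil genes, against 114 to 193 CPM in the other 7 libraries of that duration. The 3 T and NK cell genes counted summed to 78.4 to 93.4 CPM in IL-1β libraries of 20 days and 35.9 to 52.4 CPM in PBS libraries. They did not move together. Nkg7 was called higher (log2 1.07, edgeR adjusted p = 0.00029), while Cd4 stood at -1.04 without a call. Cd3g, of the T cell receptor complex, was at 0 in 3 of the 4 groups. Cd3e and Cd8a of this list, and Pax5 of the B cell list, were absent from the deposited counts. The part of these markers in the results below was not tested.

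Set against exon length, subunits of the MCM helicase held the first 4 ranks among the 47 transcripts in both groups of 1 day. Per kilobase (kb) of annotated exon, Mcm6 stood at 300.0 ± 12.6 CPM in IL-1β cells of 1 day and 230.0 ± 30.2 CPM in PBS cells of 1 day, and Mcm3 at 215 ± 18.6 CPM per kb in IL-1β cells and 154 ± 18.4 in PBS cells (SD, n = 3 each). Mcm5 and Mcm7 followed, with 191 ± 9.75 and 155 ± 13.1 CPM per kb in IL-1β cells and 119 ± 18.4 and 105 ± 13.6 in PBS cells. In PBS cells these neighbours differed by less than the SD of Mcm5. Pold2, a smaller subunit of polymerase delta, came next at 128 ± 18.4 CPM per kb in IL-1β cells and 98.5 ± 20.4 in PBS cells. At the other end stood Ticrr, which brings Cdc45 to origins, with 6.10 ± 1.34 CPM per kb in IL-1β cells and 4.39 ± 0.67 in PBS cells, and Orc1, the largest subunit of the origin recognition complex, with 7.67 ± 1.40 in IL-1β cells and 4.69 ± 1.02 in PBS cells. Fen1, the flap nuclease of the lagging strand, lay between them in IL-1β cells, at 6.66 ± 0.76, and lowest of all in PBS cells, at 4.12 ± 0.68. Within each group the SD ranges of these 3 genes overlapped. Genes with long annotated exons that these cells may not use are understated on this scale. The libraries do not mark strand, and some members share part of their exon bases with other genes. Over all overlapping genes, the share was 84.2% for Fen1, 67.3% for Gins2, 52.5% for Chaf1a, 29.8% for Orc2 and 15.1% for Rfc2. The largest overlap was with a gene on the opposite strand: Gm10143, Gse1, Ubxn6, Nif3l1 and Lat2, in that order. Rfc4 (12.7%), Mcm7 (12.6%), Orc1 (10.8%) and Rfc5 (10.7%) had smaller shares, also with the largest overlap on the opposite strand. The levels of these members are therefore uncertain, as is Pcna, which has pseudogene copies of which Pcna-ps2 is also counted.

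**Figure D1:**
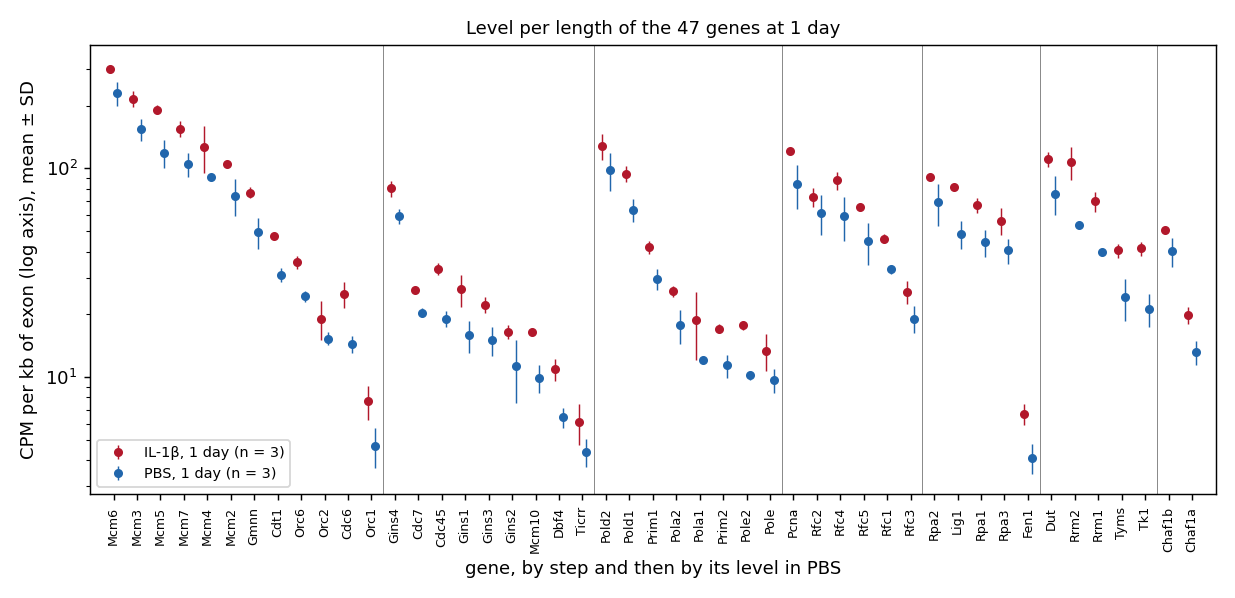
Level of each of the 47 genes at 1 day, in CPM per kb of annotated exon on a log axis, grouped by step; points are group means and bars SDs of 3 IL-1β or 3 PBS libraries. Mcm6 was highest in both groups, at 300.0 CPM per kb in IL-1β cells and 230.0 in PBS cells, and each gene's mean was higher in IL-1β cells.

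The first comparison asked how the machinery responds to a single day of IL-1β. All 47 fold changes were above 0, from a log2 of 0.26 for Rfc2 to 0.98 for Rrm2, with a median of 0.57 where the median over all 15466 genes tested was -0.01. Of the 47, 26 were called higher (edgeR quasi-likelihood test, adjusted p under 0.05 after Benjamini-Hochberg adjustment over all genes tested) and 0 lower, where 2.52% of all genes tested were called higher and 1.83% lower. The 47 transcripts together made up 12180 ± 424 CPM in IL-1β cells and 8567 ± 777 CPM in PBS cells (SD, n = 3 each). For 40 of the 47, every IL-1β library lay above every PBS library, as for 8.75% of all genes tested, and for none of them below, as for 8.91%. The 7 that overlapped were Orc2, Mcm4, Gins2, Ticrr, Pold2, Pole and Rfc2.

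**Figure D2:**
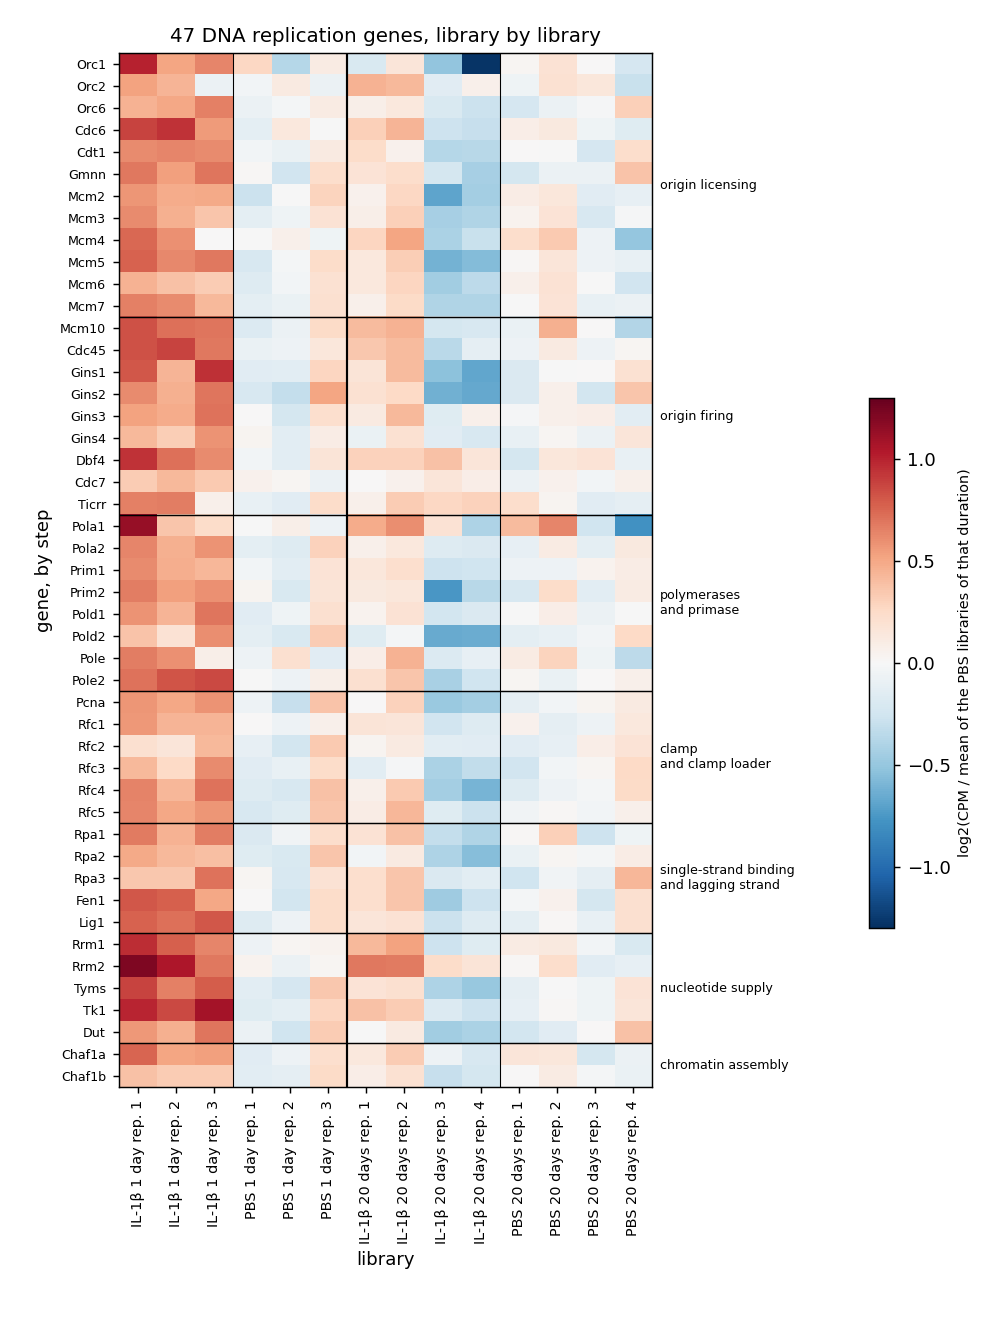
Each of the 47 genes (rows, by step) in each of the 14 libraries (columns), as the log2 ratio of its CPM to the mean of the PBS libraries of the same duration. The 3 IL-1β libraries of 1 day are high in nearly every row, and at 20 days IL-1β replicates 1 and 2 lie above the PBS mean while replicates 3 and 4 lie below it in most rows.

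The size of the count depended on single libraries. It was 10 without IL-1β replicate 1 of 1 day, 15 without IL-1β replicate 2, 11 without PBS replicate 1, 9 without PBS replicate 2, and 43 without PBS replicate 4 of 20 days. It was also 9 without the naming set term, and 41 with DESeq2. Calls over all genes tested varied too, with 389 higher in the main fit. In the fits without a library, in the order given, 169, 210, 196, 158 and 758 genes were called higher. Without the naming set term 188 were called higher, and with DESeq2 741. In each of these fits all 47 fold changes stayed above 0. For the effect within E060216 (2 against 2), the spread was estimated over all 14 libraries. There 41 of the 47 were called higher and 0 lower, where 4.74% of all genes tested were called higher and 2.71% lower. The median log2 fold change there was 0.70. In the 10k set (1 against 1, so with no test) 46 of the 47 were above 0, with a median of 0.38, and Ticrr stood at -0.18. The PBS library of that set had the highest levels of the 3 PBS libraries, with a median log2 ratio of 0.21 to the PBS mean over the 47 genes. A test of the E060216 effect minus the 10k effect called 0 of the 47 and 0 of all genes with edgeR, with a median difference of 0.36, and 14 members had an unadjusted p under 0.05, as did 1579 of the 15466 genes tested. Removing both 10k libraries, an alternative chosen after seeing the data, left 27 called.

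The sequence ahead of the transcription start was looked at because these genes moved together at 1 day. RefSeq promoters (build GRCm38.p6, 250 bases before to 50 after each start) were found for 39 of the 47 genes, 46 promoters in all. The letters TTTGGCG, with the variant forms written TTTGCCG, also those written TTTCGCG, and finally those written TTTCCCG, resemble the site that E2F factors bind. Searched on either strand and counted with overlaps, they stood in 41.3% of these promoters (95% Wilson interval 28.3% to 55.7%). They stood in 10.5% of the promoters of all genes tested and 6.70% of all promoters in the RefSeq table. CCAAT, the box bound by NF-Y, stood in 56.5% of member promoters, 37.3% of those of genes tested and 37.4% of all. The letters TTTGAA or TTCGAA, like the CHR element of late cell cycle genes, stood in 21.7%, 13.9% and 19.2%. These shares are descriptions, and a match is not a bound site.

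Promoter bases are shown for 3 licensing genes and a chromatin assembly gene that hold E2F-like letters before the start, and for Rrm2 and Tk1, the members with the largest fold changes at 1 day, which hold none in the window searched. Each line gives the 200 bases before the start, 5′ to 3′ on the gene's strand, with E2F-like letters and CCAAT boxes of either orientation in capitals.
Mcm6 (chr1:128359706-128359905, minus strand): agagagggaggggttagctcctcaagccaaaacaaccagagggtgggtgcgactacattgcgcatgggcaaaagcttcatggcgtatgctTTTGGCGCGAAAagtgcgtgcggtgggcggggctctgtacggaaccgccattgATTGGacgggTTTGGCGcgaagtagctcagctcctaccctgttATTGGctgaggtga
Mcm5 (chr8:75109309-75109508, plus strand): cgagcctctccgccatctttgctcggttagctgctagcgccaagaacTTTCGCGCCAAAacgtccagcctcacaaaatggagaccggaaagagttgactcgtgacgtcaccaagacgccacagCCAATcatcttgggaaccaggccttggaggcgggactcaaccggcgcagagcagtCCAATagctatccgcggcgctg
Cdc6 (chr11:98907951-98908150, plus strand): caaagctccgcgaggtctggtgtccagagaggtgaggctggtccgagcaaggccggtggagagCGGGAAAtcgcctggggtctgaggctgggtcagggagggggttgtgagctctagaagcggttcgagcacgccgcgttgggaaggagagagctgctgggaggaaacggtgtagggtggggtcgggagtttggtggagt
Chaf1a (chr17:56040216-56040415, plus strand): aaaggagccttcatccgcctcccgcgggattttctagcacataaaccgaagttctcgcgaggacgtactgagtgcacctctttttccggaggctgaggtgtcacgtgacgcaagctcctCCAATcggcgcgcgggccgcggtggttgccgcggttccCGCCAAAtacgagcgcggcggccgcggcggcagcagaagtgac
Rrm2 (chr12:24708054-24708253, plus strand): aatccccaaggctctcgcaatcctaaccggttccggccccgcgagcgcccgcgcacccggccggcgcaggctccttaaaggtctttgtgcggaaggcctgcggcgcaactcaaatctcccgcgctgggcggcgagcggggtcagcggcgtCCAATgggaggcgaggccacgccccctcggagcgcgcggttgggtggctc
Tk1 (chr11:117826015-117826214, minus strand): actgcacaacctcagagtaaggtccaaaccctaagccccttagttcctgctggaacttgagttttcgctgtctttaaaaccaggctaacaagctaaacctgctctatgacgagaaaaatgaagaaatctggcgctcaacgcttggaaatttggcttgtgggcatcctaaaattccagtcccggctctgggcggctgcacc
Mcm6 holds 3 E2F-like matches in these bases, of which 2 overlap, and a pair of CCAAT boxes. Mcm5 holds 2 overlapping E2F-like matches, Cdc6 and Chaf1a hold 1 each, and Tk1 has no capitals at all.

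Origin licensing was represented by 12 genes, of which 7 were called higher at 1 day, with a median log2 fold change of 0.55. Cdc6 (chr11:98907801-98923940 in GRCm38), the ATPase that loads MCM with Cdt1, had 139, 144 and 110.3 CPM in the IL-1β libraries (replicates 1 to 3), against 68.7, 82.7 and 74.8 CPM in the PBS libraries. Every IL-1β library lay above every PBS library, and the log2 fold change was 0.79 ± 0.12 (SE; edgeR adjusted p = 0.0022). Mcm5 (chr8:75109569-75128439), a subunit of the MCM ring, had 802, 724 and 757 CPM in IL-1β cells, against 408, 462 and 553 CPM in PBS cells. The groups did not overlap, with PBS replicate 3 nearest to the IL-1β libraries, and the log2 fold change was 0.69 ± 0.14 (edgeR adjusted p = 0.011). That call was lost without IL-1β replicate 1 (adjusted p = 0.065 in edgeR), PBS replicate 1 (0.065) or PBS replicate 2 (0.059).

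The 6 subunits of the MCM ring had log2 fold changes between 0.39 (Mcm6) and 0.69 (Mcm5), and 4 of them were called, namely Mcm2, Mcm3, Mcm5 and Mcm7. Mcm4, at 0.45 ± 0.13, and Mcm6, at 0.39 ± 0.12, were not (edgeR adjusted p = 0.076 and 0.077). Mcm4 had 548, 490 and 326 CPM in IL-1β cells, against 324, 340 and 313 CPM in PBS cells, so that IL-1β replicate 3 lay among the PBS libraries. Cdt1, the MCM chaperone of licensing, rose by 0.62 ± 0.14 (edgeR adjusted p = 0.018), and Orc6 by 0.54 ± 0.14 (0.042). Geminin (Gmnn), the inhibitor of Cdt1, stood at 0.64 ± 0.18 and missed the threshold (edgeR adjusted p = 0.058). Orc1, at 0.71 ± 0.24, and Orc2, at 0.30 ± 0.14, were not called (edgeR adjusted p = 0.11 and 0.28).

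Origin firing was represented by 9 genes, of which 6 were called higher: Mcm10, Cdc45, Gins3, Gins4, Dbf4 and Cdc7. Cdc45 (chr16:18780447-18811987), which joins MCM and GINS into the active helicase, had 118, 122 and 107 CPM in IL-1β cells, against 62.7, 63.6 and 73.3 CPM in PBS cells. Its lowest IL-1β library lay well above its highest PBS library, and the log2 fold change was 0.80 ± 0.14 (edgeR adjusted p = 0.0036). Dbf4 (chr5:8396973-8422716), the activating subunit of the Cdc7 kinase, had 107, 92.0 and 85.7 CPM in IL-1β cells, against 54.5, 50.9 and 62.7 CPM in PBS cells. Again there was no overlap, with a log2 fold change of 0.76 ± 0.13 (edgeR adjusted p = 0.0046), whereas its catalytic partner Cdc7 changed by 0.36 ± 0.08 (0.025). The 4 GINS subunits lay between 0.44 (Gins4) and 0.74 (Gins1). Gins1 and Gins2 were not called (edgeR adjusted p = 0.064 and 0.16), nor was Ticrr, at 0.46 ± 0.17 (0.15).

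Among the 8 polymerase and primase genes, 4 were called higher, with a median log2 fold change of 0.57. Pold1 (chr7:44532746-44548849), the catalytic subunit of polymerase delta, had 460, 416 and 498 CPM in IL-1β cells, against 276, 295 and 353 CPM in PBS cells. No libraries overlapped, and with a log2 fold change of 0.58 ± 0.09 it had the smallest SE of the step (edgeR adjusted p = 0.0023). Pole2 (chr12:69201773-69228195), the second subunit of polymerase epsilon, had 47.8, 51.9 and 53.1 CPM in IL-1β cells, against 29.2, 28.0 and 30.9 CPM in PBS cells. The spread within each group was small beside the gap between them, and the log2 fold change was 0.79 ± 0.15 (edgeR adjusted p = 0.0071). Without PBS replicate 2 its adjusted p was 0.0502 in edgeR. Pola2 of the primase complex rose by 0.56 ± 0.11 and the primase Prim1 by 0.51 ± 0.13 (edgeR adjusted p = 0.011 and 0.040). The catalytic subunit Pola1 was uneven, with 234, 138 and 126 CPM in IL-1β cells, against 106, 112 and 102 CPM in PBS cells, and was not called at 0.61 ± 0.20 (edgeR adjusted p = 0.11). Pold2, Pole and Prim2 lay at 0.39 to 0.59, also short of the threshold.

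Of the 6 clamp and clamp loader genes, 2 were called higher, Rfc1 and Rfc5, with a median log2 fold change of 0.52 over the step. Rfc1 (chr5:65261850-65335670), the large subunit of the loader that places PCNA on DNA, had 292, 270 and 270 CPM in IL-1β cells, against 199, 189 and 207 CPM in PBS cells. The groups did not overlap, with a log2 fold change of 0.48 ± 0.11 (edgeR adjusted p = 0.021). Rfc5 (chr5:117378103-117389047), a small loader subunit, had 318, 290.4 and 305 CPM in IL-1β cells, against 178, 184 and 264 CPM in PBS cells, without overlap but with PBS replicate 3 nearest, and changed by 0.57 ± 0.14 (edgeR adjusted p = 0.034). Both calls rested on single libraries of 1 day. Rfc1 lost its call without IL-1β replicate 1 or 2 or any one of the PBS libraries (edgeR adjusted p between 0.053 and 0.12), and Rfc5 without IL-1β replicate 1 or 2 or PBS replicate 1 or 2 (0.11 to 0.16). Pcna, the clamp itself, had 294, 281 and 297 CPM in IL-1β cells, against 189, 161 and 256 CPM in PBS cells. Its groups did not overlap, but PBS replicate 3 lay close to the IL-1β libraries and the log2 fold change of 0.55 ± 0.16 was not called (edgeR adjusted p = 0.072).

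Of the 5 single-strand binding and lagging-strand genes, Lig1 and Rpa1 were called higher. Lig1 (chr7:13277283-13311433), the ligase that joins Okazaki fragments, had 350.0, 338 and 360.1 CPM in IL-1β cells, against 183, 196 and 242 CPM in PBS cells. Its IL-1β libraries stood far above the PBS libraries, at a log2 fold change of 0.76 ± 0.13 (edgeR adjusted p = 0.0030). Rpa1 (chr11:75298166-75348324), the large subunit of the single-strand binding protein RPA, had 392, 334 and 389 CPM in IL-1β cells, against 214, 237 and 288 CPM in PBS cells, with a log2 fold change of 0.60 ± 0.12 (edgeR adjusted p = 0.0092). That call was lost without IL-1β replicate 1 (edgeR adjusted p = 0.070), PBS replicate 1 (0.061) or PBS replicate 2 (0.051). Rpa2 and Rpa3, the smaller RPA subunits, stood at 0.44 ± 0.14 and 0.47 ± 0.18 without a call. The flap nuclease gene Fen1, counted at only 14.03 to 17.4 CPM in IL-1β cells and 8.37 to 11.6 CPM in PBS cells, stood at 0.70 ± 0.21 (edgeR adjusted p = 0.072).

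Nucleotide supply gave the highest median of the steps, 0.79, and 4 of its 5 genes were called higher. Rrm2 (chr12:24708241-24714146), the regulated subunit of ribonucleotide reductase, had 343, 306 and 237 CPM in IL-1β cells, against 152, 141 and 151 CPM in PBS cells. All IL-1β libraries were above all PBS libraries, and the PBS values were close together. The log2 fold change of 0.98 ± 0.11 is a fold of 1.98 (edgeR adjusted p = 0.00036). Tk1 (chr11:117815526-117826092), the thymidine kinase of the salvage pathway, had 216, 198 and 231 CPM in IL-1β cells, against 98.1, 99.8 and 133 CPM in PBS cells. It too showed no overlap, with a log2 fold change of 0.98 ± 0.14 (edgeR adjusted p = 0.0011). Rrm1, the large reductase subunit, rose by 0.79 ± 0.12 and Tyms, thymidylate synthase, by 0.78 ± 0.16 (edgeR adjusted p = 0.0014 and 0.013). Dut (chr2:125247190-125258608), which removes dUTP, had 265, 248 and 291 CPM in IL-1β cells, against 171, 151 and 226 CPM in PBS cells. Its groups stood apart, but at 0.57 ± 0.17 it was not called (edgeR adjusted p = 0.076). The edgeR adjusted p of Dut was 0.011 without PBS replicate 4 of 20 days, and up to 0.29 in other fits that left out libraries.

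**Figure D3:**
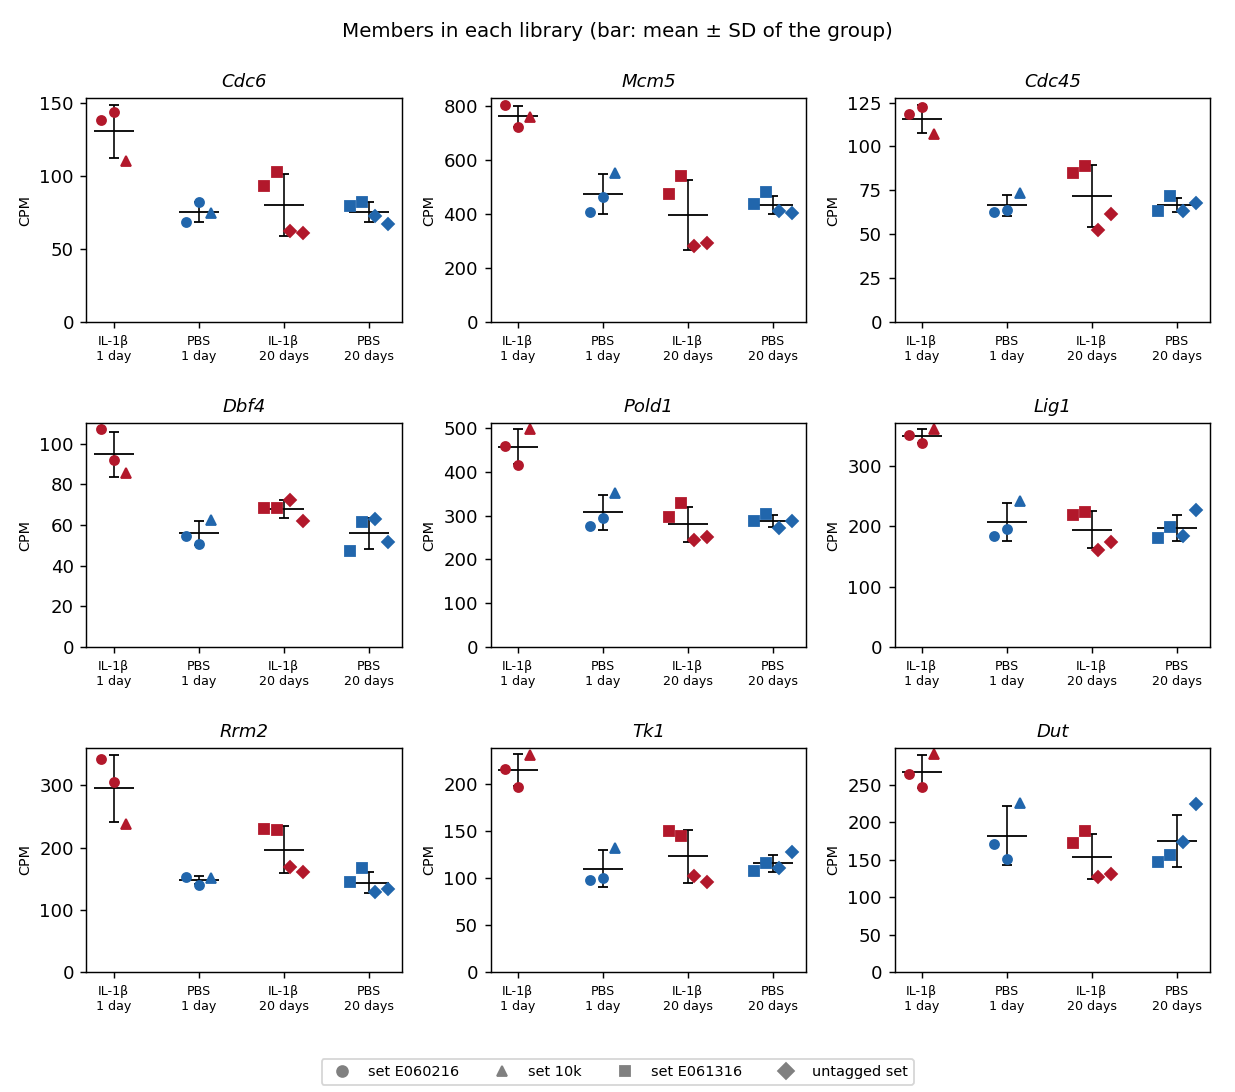
CPM of 9 of the genes in each library, from the licensing factor Cdc6 to the dUTPase Dut; marker shape gives the naming set, horizontal bars the group mean and vertical bars the SD. At 1 day the 3 IL-1β libraries lie above the 3 PBS libraries in each panel, and at 20 days IL-1β replicates 1 and 2 (squares) lie above replicates 3 and 4 (diamonds) in all panels but that of Dbf4.

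The chromatin assembly factor CAF-1, which deposits histones behind the fork, was represented by its 2 larger subunits. Chaf1a (chr17:56040439-56072289) had 196, 166 and 168 CPM in IL-1β cells, against 105, 111 and 135 CPM in PBS cells, and rose by 0.60 ± 0.11 (edgeR adjusted p = 0.0053). Chaf1b (chr16:93883901-93906115) had 243, 235 and 234 CPM in IL-1β cells, against 170, 172 and 222 CPM in PBS cells. PBS replicate 3 lay just under the IL-1β libraries, and the log2 fold change of 0.35 ± 0.10 was not called (edgeR adjusted p = 0.070). Without IL-1β replicate 3 its adjusted p was 0.029, without PBS replicate 3 0.028, and without PBS replicate 4 of 20 days 0.028. In other fits that left out libraries it rose, to at most 0.269 (edgeR).

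A further 70 genes of the same processes outside the list were read from the same fit at 1 day, and 64 of them had fold changes above 0. Of the 70, 22 were called higher and 0 lower with edgeR, where 2.52% of all genes tested were called higher and 1.83% lower. Their median log2 fold change was 0.41, and 1 had an unadjusted edgeR p under 0.05 and a fold change below 0. By process, 2 of 11 origin genes, 7 of 19 fork genes, 1 of 13 nucleotide genes, 6 of 11 chromatin genes and 6 of 16 genes of S-phase control were called. Chtf18, of an alternative clamp loader, averaged 84.9 ± 3.96 CPM in IL-1β cells and 43.1 ± 5.93 CPM in PBS cells (log2 0.98 ± 0.13; edgeR adjusted p = 0.00062). Ccna2, the S-phase cyclin A2, averaged 316 ± 60.5 CPM in IL-1β cells and 159 ± 9.20 CPM in PBS cells (log2 0.97 ± 0.11). E2f8, an E2F repressor, averaged 82.8 ± 16.0 CPM in IL-1β cells and 43.1 ± 2.24 CPM in PBS cells (log2 0.93 ± 0.12). Top2a, the topoisomerase of proliferating cells, rose by 0.75 ± 0.11, Dnmt1, which copies DNA methylation, by 0.65 ± 0.11, and Mms22l, of fork recovery, by 0.59 ± 0.11. Fbxo5, an inhibitor of the anaphase-promoting complex, rose by 0.58 ± 0.10, the deoxycytidine kinase Dck by 0.53 ± 0.10 and the MCM-binding protein Mcmbp by 0.42 ± 0.11.

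The second comparison asked whether the machinery was still altered after 20 daily injections. Of the 47 genes, 1 was called higher and 0 lower (edgeR, adjusted p under 0.05), where 3.94% of all genes tested were called higher and 3.52% lower, and 1 of the 47 had an unadjusted p under 0.05 and a fold change below 0. Fold changes ran from a log2 of -0.43 (Orc1) to 0.44 (Rrm2), 17 above 0 and 30 below, with a median of -0.04 where that of all genes tested was -0.00034. The summed level was 7902 ± 1549 CPM in IL-1β cells and 8050 ± 382 CPM in PBS cells (SD, n = 4 each). For none of the 47 did the IL-1β libraries stand clear of the PBS libraries, where 5.39% of all genes tested did so upward and 4.99% downward. Without PBS replicate 4 of 20 days the median was 0.04, with 29 of 47 above 0.

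Rrm2 was the exception. It had 230.4, 228, 169 and 161 CPM in the IL-1β libraries of 20 days (replicates 1 to 4), against 144, 168, 129 and 133 CPM in the PBS libraries. The lowest IL-1β value lay just under the highest PBS value, and within each naming set both IL-1β libraries were above both PBS libraries. Its log2 fold change was 0.44 ± 0.10 (edgeR adjusted p = 0.012). It was called within E061316 (0.55) and within the untagged set (0.33), with the spread estimated over all 14 libraries. It remained called in each of the 14 fits that left out a library, at an adjusted p of up to 0.043. Without the naming set term its adjusted p was 0.096. The test of its 20-day effect minus its 1-day effect gave -0.54 ± 0.15 (edgeR adjusted p = 0.067).

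**Figure D4:**
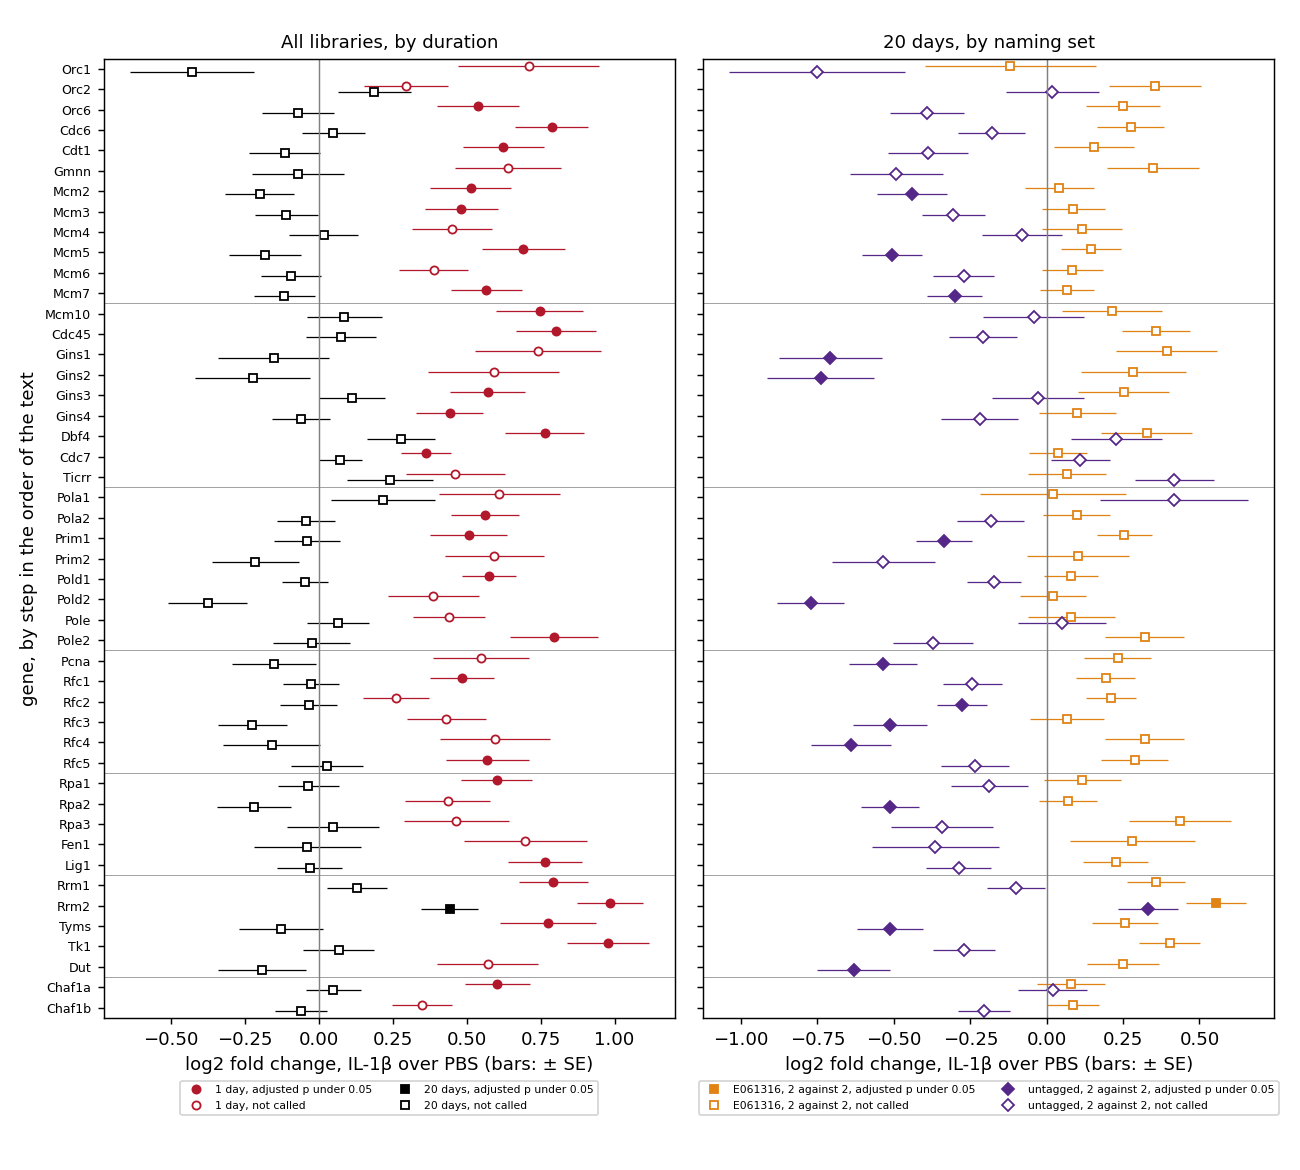
Fold change (log2) with IL-1β, relative to PBS, for each of the 47 genes, with SEs. Left, at 1 day and at 20 days over all libraries; right, at 20 days within each naming set. Filled symbols passed the test: 26 genes at 1 day, Rrm2 at 20 days, Rrm2 in E061316, and Rrm2 with 14 lower genes in the untagged set.

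The naming sets of 20 days lay on either side of this result. In E061316, IL-1β replicates 1 and 2 held 8908 and 9537 CPM over the 47 genes, against 8002 and 8546 CPM in the PBS libraries. In the untagged set, IL-1β replicates 3 and 4 held 6473 and 6691 CPM, against 7616 and 8037 CPM in PBS. The PBS libraries of both sets lay within a narrow range, and the IL-1β libraries lay on either side of it. In E061316, 46 of the 47 fold changes were above 0, with a median of 0.21, and 1 gene, Rrm2, was called higher and 0 lower, where 1.3% of all genes tested were called higher and 1.57% lower. In the untagged set 39 were below 0, with a median of -0.28, and 14 were called lower, where 7.10% of all genes tested were called lower and 5.70% higher. For both sets the spread was estimated over all 14 libraries.

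The 14 genes called lower in the untagged set came from most steps: Mcm2, Mcm5 and Mcm7 in licensing, Gins1 and Gins2 in firing, Prim1 and Pold2 among the polymerases, Pcna, Rfc2, Rfc3 and Rfc4 of the clamp and its loader, Rpa2, and Tyms and Dut of nucleotide supply. No chromatin assembly gene was among them. Pold2 had the largest decrease, at -0.77 (edgeR adjusted p = 0.0018), and Rfc2 the smallest, at -0.28 (0.043). Dbf4 (0.23), Ticrr (0.42) and Pola1 (0.42) were above 0 in that set without a call.

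A direct test of the untagged effect minus the E061316 effect called 0 of the 47, where 0.0905% of all genes tested were called higher and 0.0776% lower. The median difference was -0.49, 44 of the 47 were below 0, and 31 of the 47 had an unadjusted p under 0.05, as did 2898 of the 15466 genes tested. The genes with the smallest p were Dut, Rfc4 and Pold2. Dut had 172, 188, 126 and 130.4 CPM in IL-1β cells, against 147, 156, 174 and 225 CPM in PBS cells, so that it was higher with IL-1β in E061316 and lower in the untagged set. The difference was -0.88 ± 0.17 (edgeR adjusted p = 0.053). Rfc4 (chr16:23113943-23127737), a small loader subunit, had 88.0, 106 and then 61.8 and 54.9 CPM in IL-1β cells, against 74.8, 80.3, 82.5 and 99.5 CPM in PBS cells, with a difference of -0.96 ± 0.18 (0.053). Pold2 (chr11:5872180-5878292) had 156, 171, 111 and 111 CPM in IL-1β cells, against 159, 163, 170 and 209 CPM in PBS cells, with a difference of -0.79 ± 0.15 (0.053). In Pold2, IL-1β replicate 1 lay just below the lowest PBS library, replicate 2 among the PBS libraries, and replicates 3 and 4 far below all of them.

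**Figure D5:**
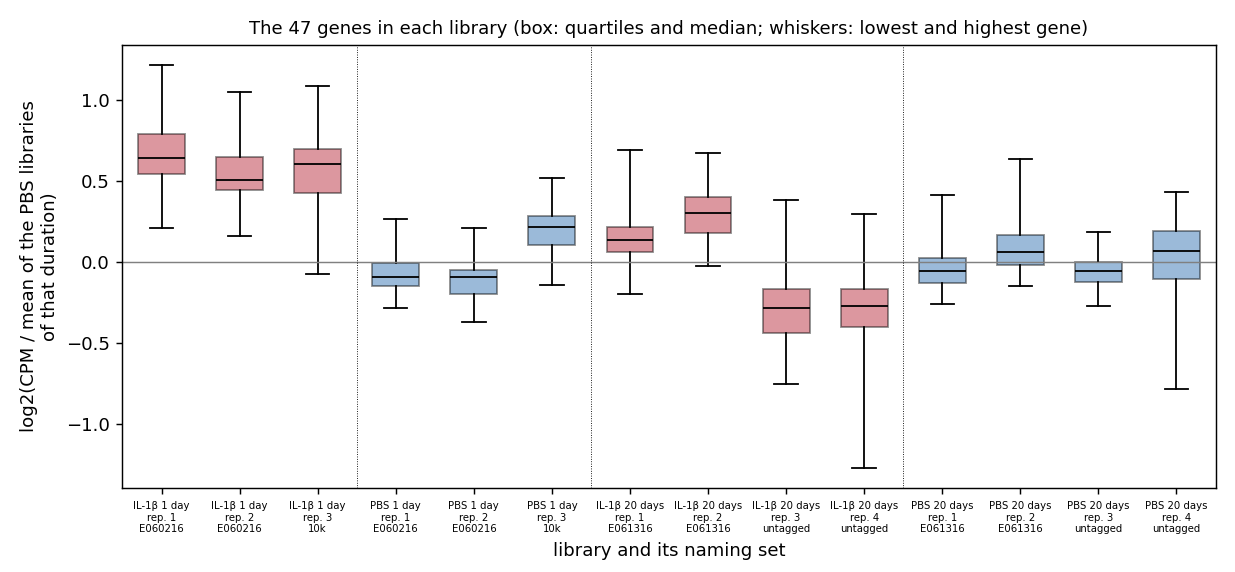
Spread of the 47 genes in each library, as log2 ratios of CPM to the mean of the PBS libraries of the same duration. At 20 days the medians of IL-1β replicates 1 and 2 are 0.14 and 0.30 and those of replicates 3 and 4 are -0.28 and -0.27, while the PBS medians lie between -0.06 and 0.07.

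This difference too depended on a library: without PBS replicate 3 of 20 days, 23 of the 47 were called lower in it, and the calls over all genes tested stood at 1058 lower and 1308 higher, against 12 lower and 14 higher with all libraries. Sums of some marker lists also differed between the IL-1β libraries of these sets. Flt3 and Cd48 together had 145 and 148 CPM in IL-1β replicates 3 and 4, and 100.0 and 84.2 CPM in IL-1β replicates 1 and 2, against 43.9 to 65.6 CPM in PBS. The long-term stem cell genes summed to 1513 and 1555 CPM in IL-1β replicates 3 and 4 and to 1392 and 1330 CPM in replicates 1 and 2, and to 1633 to 1916 CPM in PBS. The neutrophil genes summed to 2631 and 193 CPM in IL-1β replicates 3 and 4, and 152 and 136 CPM in 1 and 2. In PBS they summed to 147.5 and 167 CPM in the untagged set and 120.3 and 114 CPM in E061316. Megakaryocyte genes did not follow the split. They summed to 682 and 1176 CPM in IL-1β replicates 3 and 4, and 802 and 872 CPM in 1 and 2. The part of these markers in the difference between the sets was not tested.

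Among the 70 further genes at 20 days, 5 were called higher and 3 lower, where 3.94% of all genes tested were called higher and 3.52% lower. E2f8 averaged 60.2 ± 10.4 CPM in IL-1β cells and 38.7 ± 8.12 CPM in PBS cells (log2 0.64 ± 0.10; edgeR adjusted p = 0.0013). Ccna2 (0.39 ± 0.10), Top2a (0.40 ± 0.10), Fbxo5 (0.37 ± 0.09) and Pold4, the smallest subunit of polymerase delta (0.46 ± 0.13), were the other called increases. The genes called lower were Shmt1, Shmt2 and Mthfd1. Shmt1, the cytosolic serine hydroxymethyltransferase, averaged 65.5 ± 16.7 CPM in IL-1β cells and 103 ± 9.25 CPM in PBS cells (log2 -0.68 ± 0.12; edgeR adjusted p = 0.0026). Its mitochondrial counterpart Shmt2 fell by 0.46 ± 0.11 and Mthfd1, a folate-interconverting enzyme, by 0.49 ± 0.11. Pold4, Shmt1, Shmt2 and Mthfd1 were picked out because they passed the test, not by the naming rule.

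The 2 durations were then compared in a single fit. Each naming set holds libraries of only 1 duration, so duration and naming set cannot be told apart here. Between the 20-day sets, untagged minus E061316, the members' IL-1β effects differed by a median of -0.49. Between the 1-day sets, E060216 minus 10k, the median difference was 0.36. The effect at 20 days minus that at 1 day was below 0 for all 47 genes, from -0.11 (Orc2) to -1.14 (Orc1), with a median of -0.66. The test called 10 of the 47 lower, where 0.989% of all genes tested were called lower and 1.15% higher. They were Cdc6, Cdt1, Mcm5, Mcm7, Pold1, Pole2, Lig1, Rrm1, Tyms and Tk1, with none from firing, the clamp loader or chromatin assembly, and those steps were not tested against the others. The smallest p belonged to Pold1, at -0.62 ± 0.12 (edgeR adjusted p = 0.024). Tk1, which averaged 215 CPM in IL-1β and 110.1 CPM in PBS cells of 1 day, averaged 123 CPM in IL-1β and 116 CPM in PBS cells of 20 days, and differed by -0.91 ± 0.18 (0.028). Lig1 averaged 349 and 207 CPM in IL-1β and PBS cells of 1 day and 194.5 and 197 CPM in those of 20 days, a difference of -0.79 ± 0.17 (0.032). Adjusted p-values of the 10 lay between 0.024 and 0.0498.

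This count depended on single libraries. It was 0 without any one of IL-1β replicates 1 and 2 or PBS replicates 1 and 2 of 1 day, and 4, 1 and 1 without IL-1β replicate 1, 3 or 4 of 20 days. It was 1 without PBS replicate 3 of 20 days, 27 without IL-1β replicate 2 of 20 days, 19 without PBS replicate 1 and 16 without PBS replicate 4. Removing both 10k libraries left 16. Calls over all genes tested varied too, with 153 lower in the main fit. Without IL-1β replicate 1 or 2 of 1 day 11 and 8 were called lower, and without PBS replicate 1 or 2 26 and 9. Without IL-1β replicate 2 of 20 days there were 366, and without both 10k libraries 216. The median of the members stayed between -0.76 and -0.57 when single libraries were left out, and at least 46 of the 47 differences stayed below 0. Of the 70 further genes, 7 were called lower and 0 higher with edgeR, where 0.989% of all genes tested were called lower and 1.15% higher. In 2 of the 70 the unadjusted edgeR p was under 0.05 with a difference above 0. Those called lower included Chtf18 (-0.96 ± 0.17), Shmt1 (-0.97 ± 0.18), Nasp, a histone chaperone (-0.81 ± 0.18), and Dnmt1 (-0.64 ± 0.15). Nasp was chosen after its value was seen.

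PBS cells of 20 days and PBS cells of 1 day were compared to see whether the baseline itself had shifted. With edgeR, 0 of the 47 and 0 of all genes tested were called, with 1 of the 47 at an unadjusted p under 0.05. The median log2 difference, 20 days over 1 day, was -0.07, and 0.07 without PBS replicate 3 of 1 day. Duration and naming set cannot be told apart in this comparison, because each set holds libraries of only 1 duration.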

How the data were processed

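SLAM cell RNA of 14 libraries was read as 1 table of gene counts, with 0 columns outside these libraries. Per the labels' protocols, total RNA was made into cDNA and Nextera XT libraries by a chemistry that does not mark strand, and read as single-end 100 nt reads. The deposited values are raw read counts per gene, unnormalized, per the file. Tools listed in the submitters' processing notes, with no roles given, include the aligner STAR (2.4.2a), the counter HTSeq (0.6.1), the trimmer Trimmomatic (0.32), Cufflinks (2.0.2) with Cuffdiff, and DESeq2 (1.12.3), and the build listed is GRCm38.p4. The strand setting of the counting is not given in the sources used here.

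From the counts, CPM were computed with TMM factors, and sums over lists with library totals. Genes passing filterByExpr (minimum count 10) entered a robust edgeR (4.0.16, under R 4.3.3) quasi-likelihood fit to all 14 libraries, with a naming set term and an IL-1β effect per duration (8 residual degrees of freedom, biological coefficient of variation 0.198). Effects within a naming set, and differences between sets, came from a further fit to all 14 libraries. It had an IL-1β effect per naming set and 6 residual degrees of freedom. P-values were adjusted over all 15466 genes tested, with a threshold of 0.05. SEs were taken as the absolute log2 fold change over the square root of F. DESeq2 1.42.0 was an alternative, and the edgeR fit was tested on simulated data. A level of 3 counts was 0.102 to 0.139 CPM. The Wilson interval of the promoter share covers the sampling of promoters only. SEs came from the fit and include the spread between libraries. Replicates of a group differed beyond counting noise, with a chi-square per degree of freedom of 10.65 to 74.39 over 18 pairs. Exon lengths and overlaps came from the GENCODE annotation of GRCm38.

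Genes named were the 2 with the smallest p at 1 day in each step and each further list, those called at 20 days, and the 3 with the smallest p for the durations and for the 20-day naming sets. A gene that this rule names in the further lists is not reported here. Other genes named with values were chosen after their values were seen. The members and lists were chosen with earlier results of these data known.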

Additional observations from a re-analysis of the deposited data

Results flagged for a closer look

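The effect of IL-1β at 20 days minus that at 1 day passed a direct test for 10 of the 47 genes, each with a smaller fold change at 20 days (edgeR, Benjamini-Hochberg adjustment over all genes tested), where 0.989% of all genes tested were called lower. The count was 0 without the naming set term, 0 with the replicate block, and 0 without any one of IL-1β replicates 1 and 2 or PBS replicates 1 and 2 of 1 day. Over all genes tested 7, 3 and 8 to 26 were called lower in those fits, against 153 in the main fit. Duration and naming set cannot be told apart in this test, because each set holds libraries of only 1 duration. In licensing the log2 differences were -0.74 for Cdc6 (adjusted p = 0.0371), -0.74 for Cdt1 (0.0498), -0.87 for Mcm5 (0.0334) and -0.68 for Mcm7 (0.0426). Among the polymerases, Pold1 differed by -0.62 (edgeR adjusted p = 0.0242) and Pole2 by -0.82 (0.0484), and on the lagging strand Lig1 by -0.795 (0.0324). In nucleotide supply the differences were -0.66 for Rrm1 (edgeR adjusted p = 0.0442), -0.90 for Tyms (0.0461) and -0.91 for Tk1 (0.0282). No library stood apart from the rest of its group in the 94 groups of 4 libraries that were checked, 1 per gene and treatment at 20 days. The groups of 1 day were not checked. The check looked for a single library apart, so it does not cover a split between the naming sets.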

How the results depend on the processing

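None of the named members changed sign in the alternatives run for the 1-day effect and the difference between durations. For the 20-day effect only Rrm2 was followed, and it kept its sign. For the difference between the 20-day naming sets Dut, Rfc4 and Pold2 were followed and kept theirs. Signs of the other members at 20 days were not followed, and Dut was higher with IL-1β in E061316 and lower in the untagged set. The median log2 fold change of the members at 20 days, -0.04 over all libraries, was 0.04 without PBS replicate 4 of 20 days and 0.21 within E061316, and the median PBS difference between durations, -0.07, was 0.07 without PBS replicate 3 of 1 day. With no naming set term, 9 members were called higher at 1 day, 0 at 20 days and 0 lower in the difference between durations, and 290, 525 and 23 of all genes were called. With the replicate block these were 17 members and 383 genes at 1 day, 672 genes at 20 days, and 0 members and 23 genes in the difference. Same-numbered libraries deviated together with r of -0.0297 to 0.184 at 1 day and 0.018 to 0.274 at 20 days, so the numbers were not shown to pair them, and not every library correlated best with its own number. Libraries of the same duration alone gave 44 members and 1200 genes at 1 day, and 750 genes at 20 days. Within E060216 there were 41 members and 1152 genes at 1 day. At 20 days E061316 gave 444 genes, and the untagged set 14 members lower and 1979 genes. DESeq2 gave 41 members and 1399 genes at 1 day, 1 member lower and 1815 genes at 20 days, and 35 members lower and 1185 genes in the difference. A minimum count of 50 gave 22 members and 540 genes in the difference, and leaving out both 10k libraries, chosen after seeing the data, 16 members. For the 20-day naming sets, 41 genes were called with RLE factors. The cause of these shifts was not tested.

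Leaving out single libraries gave 9 to 43 members and 228 to 1244 genes at 1 day, 0 to 1 members lower and 648 to 1156 genes at 20 days, 0 to 27 members lower and 34 to 604 genes in the difference, and 0 to 23 members lower and 1 to 2366 genes between the 20-day naming sets. With upper-quartile factors 46.3% of the genes called at 1 day were higher, against 57.9% with TMM. Without the naming set term Mcm5, Rfc1, Rfc5, Rpa1 and Chaf1a lost their 1-day calls. In the 100 bases before the start, 15.2% of member promoters held E2F-like letters, against 3.65% of those of genes tested and 2.25% of all. There CCAAT stood in 45.7%, 21.5% and 18.9%, and CHR-like letters in 4.35%, 3.67% and 6.13%. The lowest level of a member in any library was 5.68 CPM (Orc1), well above the 0.139 CPM that 3 counts make up at most.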
